A study of Mus musculus with 6 samples.

Results

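The genes described are those of calcium release from and uptake into the sarcoplasmic reticulum, the internal calcium store of the heart muscle cell. They were chosen by name from the deposited gene tables and number 10 of the 18005 genes listed: the calcium pump genes Atp2a1, Atp2a2 and Atp2a3, the pump inhibitors Pln and Sln, the release channel gene Ryr2, its luminal partners Casq2 and Trdn, the dyad protein gene Jph2 and the kinase gene Camk2d. All 10 had counts in at least 1 library, and 9 passed the filter on low counts and were tested. Sln did not pass it. RNA was sequenced from hearts of 3 old and 3 young mice (Mus musculus). Every animal of both groups is labelled wild type and untreated, and the labels give no age in months, strain, sex or heart chamber. By its title the series concerns cardiac hypertrophy of old age. The 3 samples of a group carry numbers in their titles and were taken as separate animals.

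In each heartbeat calcium enters through channels of the cell membrane and opens the ryanodine receptor, which releases the calcium held in the sarcoplasmic reticulum and so starts contraction. The pump SERCA returns that calcium to the store for relaxation, phospholamban holds the pump back until it is phosphorylated, and the sodium-calcium exchanger removes the rest from the cell. Weaker or slower uptake by this pump is a known feature of failing and aged hearts.

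Library totals lay between 11295280 and 12514005 counts, so that 1 count was worth 0.0774 to 0.0885 CPM (the count relative to library size after TMM scaling, which sets libraries to a common scale through the bulk of their genes). The ventricular markers dominated every library: the summed FPKM (counts scaled by gene length and library size) of 11 such genes was 38965 to 40133 in old and 31898 to 34389 in young hearts, with 2 of the 11 called higher and 3 lower. That gap rested on Actc1, since the other 10 summed to 26729 to 28705 FPKM in old and 25851 to 28932 FPKM in young hearts, which overlapped. Atrial markers differed in level, with Myl4 at most at 0.288 FPKM, Bmp10 at most at 0.0646 FPKM and Myl7 at most at 2.34 FPKM in any library. In contrast, Pam averaged 81.84 FPKM in old and 98.02 FPKM in young hearts, and Stard10 24.25 and 18.48 FPKM. The FPKM of Myl4 was divided by a gene model of 16315 bases. Of the 11 atrial markers, 3 were called higher and 3 lower in old hearts, and their summed FPKM was 165 to 258 in old and 514 to 631 in young hearts. Nppa made up 34.3% to 48.4% of that sum in old and 76.3% to 78.7% in young hearts, and without it the sums overlapped (108 to 133 FPKM in old and 122 to 136 FPKM in young hearts). These sums without a gene were added after the data were seen. Library young 3 stood apart in fast skeletal muscle markers, of which 8 of 11 had their highest FPKM there. Of other cell types, 4 of 6 smooth muscle markers were called higher and 1, Des, lower. Des averaged 624 FPKM in old and 852 FPKM in young hearts. Of 5 fibroblast markers 1 was called higher and 1 lower, and of 5 red cell markers 1, Hba-a2, was called lower. The summed FPKM of the red cell markers was 5008.5, 10360 and 6917 in old hearts and 3611.9, 26028 and 14344 in young hearts. All 5 red cell markers were highest in young 2. Over all tested genes, 11.4% were called higher and 10.6% lower. In bulk tissue, fewer cells of a type and less RNA per cell cannot be told apart.

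Old hearts had more transcript of the main pump gene, of calsequestrin and of junctophilin, while the release channel itself and phospholamban did not pass the test. Casq2 was 1.43-fold, Jph2 1.37-fold and Atp2a2 1.247-fold higher in old hearts. Of 19 alternative fits, the adjusted p was under 0.05 in 19 for Casq2, 18 for Jph2 and only 10 for Atp2a2. These 3 of the 9 tested genes were called higher by edgeR at an adjusted p under 0.05, a direction in which 11.4% of all 12893 tested genes were called. None was called lower by edgeR, DESeq2 or limma-voom, against 10.6% of all tested genes by edgeR. At an unadjusted edgeR p under 0.05 was 1 lower gene, Atp2a1, as were at least those 10.6%. In either direction 22.0% of all tested genes were called, and of these calls 51.7% were higher in old hearts, a share of 40.2% with upper-quartile scaling and 32.7% with library size alone. The old libraries all lay above the young ones for 4 of the 9 genes, as for 19.6% of all tested genes, and all below them for 0, as for 20.3%. The median log2 fold change of old over young was 0.10 over the 9 genes and -0.01 over all tested genes, and the median size of the change was 0.20 in each.

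**Figure D1:**
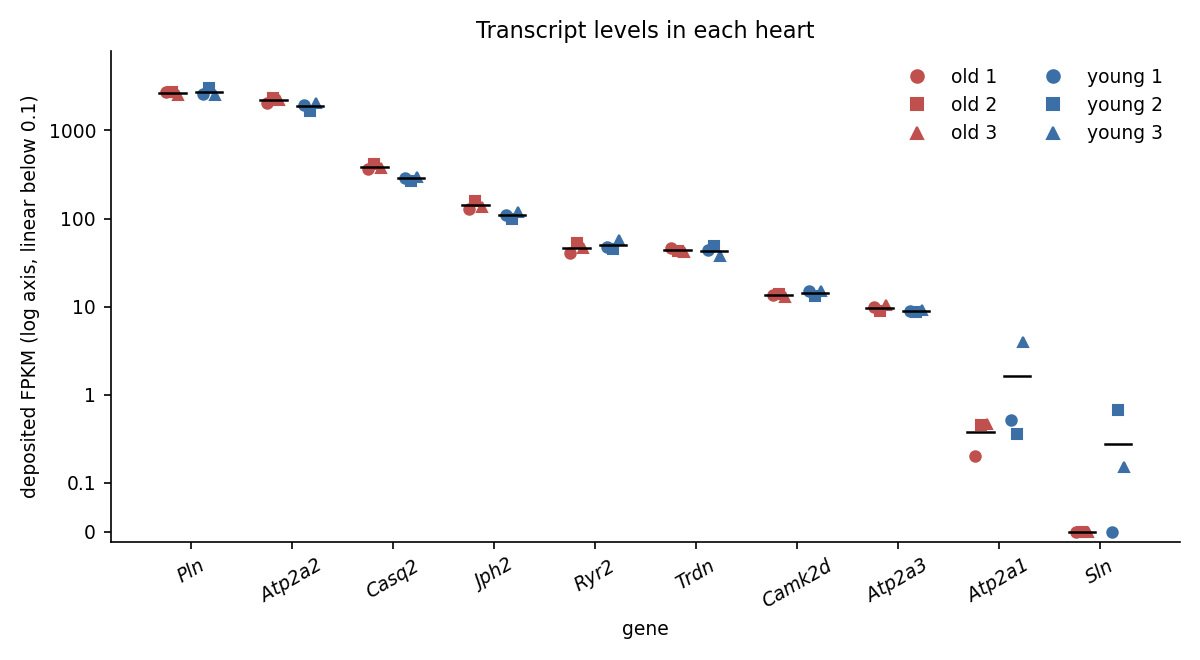
Deposited FPKM of the 10 genes in each heart, on a log axis that is linear below 0.1, with old hearts left of young ones, 1 symbol per library and a bar at the group mean. Pln and Atp2a2 lie near 2678 and 2033 FPKM on average, and Sln is listed at 0 in all 3 old hearts and in young 1.

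Per length, the 10 genes spanned from among the most abundant transcripts of the heart to the limit of detection. Pln had 2678 and Atp2a2 2033 FPKM on average over the 6 libraries, ranks 19 and 30 of all genes. Casq2 followed at 336 FPKM and Jph2 at 125 FPKM. Each of these was above the next in every library and their ranges did not overlap. Ryr2 at 48.2 FPKM and Trdn at 43.6 FPKM were not separated, Ryr2 being higher in 4 of the 6 libraries. Camk2d at 13.9 FPKM, Atp2a3 at 9.29 FPKM, Atp2a1 at 1.001 FPKM and Sln at 0.139 FPKM closed the order. Together the 10 genes took 2.02%, 2.21% and 2.08% of all counts in the old libraries and 1.91%, 1.86% and 1.97% in the young ones.

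Atp2a2 encodes SERCA2, the calcium pump of the cardiac sarcoplasmic reticulum. Its CPM was 11140, 12850 and 11969 in old hearts and 9784, 8632 and 10416 in young hearts. Every old library was above every young one, with the smallest gap between old 1 and young 3. The log2 fold change was 0.32 ± 0.09 (SE, edgeR adjusted p = 0.0289). The call was lost without old 1, old 2, young 1 or young 2 (edgeR adjusted p up to 0.0951), and with library size alone, on the deposited FPKM values and with the replicate number as a block (edgeR adjusted p = 0.0859 with the block), where the direction stayed the same. Gene counts pool the splice forms of this gene, so its cardiac and ubiquitous forms were not separated.

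SERCA2 made up nearly all pump transcript in both groups. Atp2a2 took 99.51%, 99.60% and 99.52% of the summed FPKM of the 3 pump genes in old hearts and 99.52%, 99.46% and 99.35% in young hearts, and the groups overlapped (exact 2-sided permutation p = 0.2, where 3 against 3 cannot give less than 0.1). Atp2a3 encodes SERCA3, a pump of endothelial, blood and other non-muscle cells. It had 46.5, 42.7 and 48.2 CPM in old hearts and 39.0, 39.3 and 40.9 CPM in young hearts. All old values were above the young ones, but the gene did not pass (log2 fold change 0.20 ± 0.08, edgeR adjusted p = 0.0911), and on the deposited FPKM scale the groups overlapped. Of 19 alternatives, Atp2a3 was called in 1, after removal of the gene length trend (edgeR adjusted p = 0.0409).

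Markers of cells known to hold SERCA3 did not all move the same way. Over all tested genes, 11.4% were called higher and 10.6% lower. Of 8 endothelial markers 0 were called higher and 2 lower. At an unadjusted edgeR p under 0.05 were 4 of the 8, as were at least the 22.0% of all tested genes that were called. The summed FPKM of the 8 was 428 to 536 in old and 538 to 614 in young hearts. These sums nearly met, and FPKM carries no TMM scaling, unlike the calls. The TMM factors were 0.955 to 0.988 in old and 1.009 to 1.043 in young libraries. Of 6 platelet markers 5 were tested and 1, Pf4, was called higher. The summed FPKM of all 6 was 60.8 to 82.1 in old and 45.3 to 64.8 in young hearts. Pf4 held most of this sum, at an average of 57.6 FPKM in old and 39.7 FPKM in young hearts. Ppbp, next in level, averaged 8.33 and 10.1 FPKM. Of the 5 tested markers, 4 had a positive fold change and 1 a negative fold change. Of 9 lymphocyte markers 8 were tested and 2 were called higher. All 9 summed to 6.18 to 13.004 FPKM in old and 5.46 to 9.89 FPKM in young hearts. Their part in the level of Atp2a3 was not tested.

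Atp2a1 encodes SERCA1, the pump of fast skeletal muscle. Its counts were 8, 19 and 19 in old hearts and 22, 14 and 172 in young hearts. Young 3 was far above the other 5 libraries, which overlapped between the groups. The log2 fold change was -2.03 ± 0.79 (SE, edgeR adjusted p = 0.0863), and without young 3 it was -0.15 (edgeR adjusted p = 0.849). Its call was gained when young 1 or young 2 was left out, with no filter and with the replicate number as a block.

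**Figure D2:**
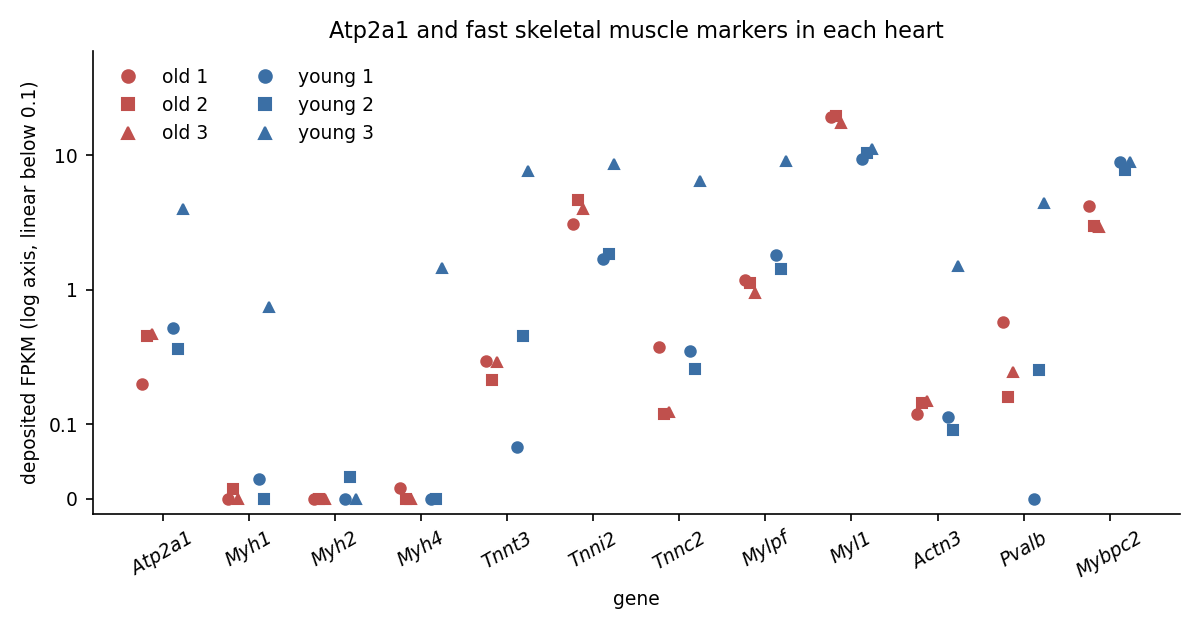
Deposited FPKM of Atp2a1 and of 11 fast skeletal muscle markers in each heart, on a log axis that is linear below 0.1, with old hearts left of young ones and 1 symbol per library. Library young 3 holds the highest value of Atp2a1 (3.995 FPKM) and of 8 of the 11 markers, whereas Myl1 is higher in every old heart.

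The same library was high in genes of the fast skeletal fibre. Myh4, a fast myosin heavy chain, had 1.44 FPKM in young 3 and at most 0.0143 FPKM elsewhere. Tnnt3, the fast troponin T, had 7.66 FPKM in young 3 and at most 0.454 FPKM in the others, and Pvalb, the calcium buffer parvalbumin, had 4.44 FPKM against at most 0.579 FPKM. The summed FPKM of the 11 markers was 29.1, 29.1 and 26.0 in old hearts and 22.5, 22.4 and 59.997 in young hearts. Of the 4 tested markers Myl1 was called higher and Mybpc2 lower in old hearts. Casq1, the skeletal calsequestrin, did not single out this library, at 3.11 FPKM in young 3 and 1.36 to 4.0048 FPKM in the others. The part of skeletal muscle RNA in the value of Atp2a1 was not tested. The fit without young 3 cannot test it, because it drops the highest Atp2a1 value whatever its source.

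Phospholamban, encoded by Pln, is the small membrane protein that inhibits SERCA2 and is relieved by protein kinase A and CaMKII. Pln had 6880, 7057 and 6325 CPM in old hearts and 6136, 7457 and 6066 CPM in young hearts. The groups overlapped, with the highest value in young 2. Old over young, the log2 fold change was 0.04 ± 0.10 (SE, edgeR adjusted p = 0.776), with a 95% confidence interval from -0.17 to 0.25. It was -0.04 with library size alone, and its sign was negative in 7 of 19 alternatives.

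Within each heart, the ratio of Pln to Atp2a2 transcript per length was 1.32, 1.17 and 1.13 in old hearts and 1.34, 1.84 and 1.24 in young hearts. Young 2 had the highest ratio and the rest overlapped. The difference in mean log2 ratio was -0.27 (exact 2-sided permutation p = 0.2, adjusted p = 0.3 over 6 ratios), and -0.10 without young 2. Pln averaged 2646 ± 111 FPKM in old and 2711 ± 278 FPKM in young hearts, so phospholamban transcript exceeded that of its pump in both groups (SD, n = 3 each).

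Sarcolipin, encoded by Sln, is the pump inhibitor of atria and slow skeletal muscle. It had 0, 0 and 0 counts in old hearts and 0, 4 and 1 counts in young hearts. A count of 0 has an exact 95% Poisson upper limit of 0.319 to 0.327 CPM in the old libraries (covering counting error only). The 4 counts of young 2 equal 0.351 CPM, with an exact 95% Poisson interval from 0.0957 to 0.900 CPM. No fold change is given because both groups lay at or near this floor, and sarcolipin was at the limit of detection beside phospholamban in all 6 hearts.

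Strit1 encodes DWORF, a small protein that in mice activates SERCA by displacing phospholamban, and its rise was the largest among the called genes that regulate uptake. Its CPM was 90.1, 66.3 and 89.3 in old hearts and 31.1, 44.5 and 35.0 in young hearts, without overlap. The log2 fold change was 1.16 ± 0.14 (SE, edgeR adjusted p = 0.000225), a 2.23-fold rise that was called whichever library was left out. Per length, Strit1 had 275 ± 49.3 FPKM in old and 130 ± 22.0 FPKM in young hearts (SD, n = 3 each), well below Pln. The gene model behind these values is 290 bases long.

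Mrln, which encodes the skeletal pump inhibitor myoregulin, was among the genes under the filter and was not tested.

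**Figure D3:**
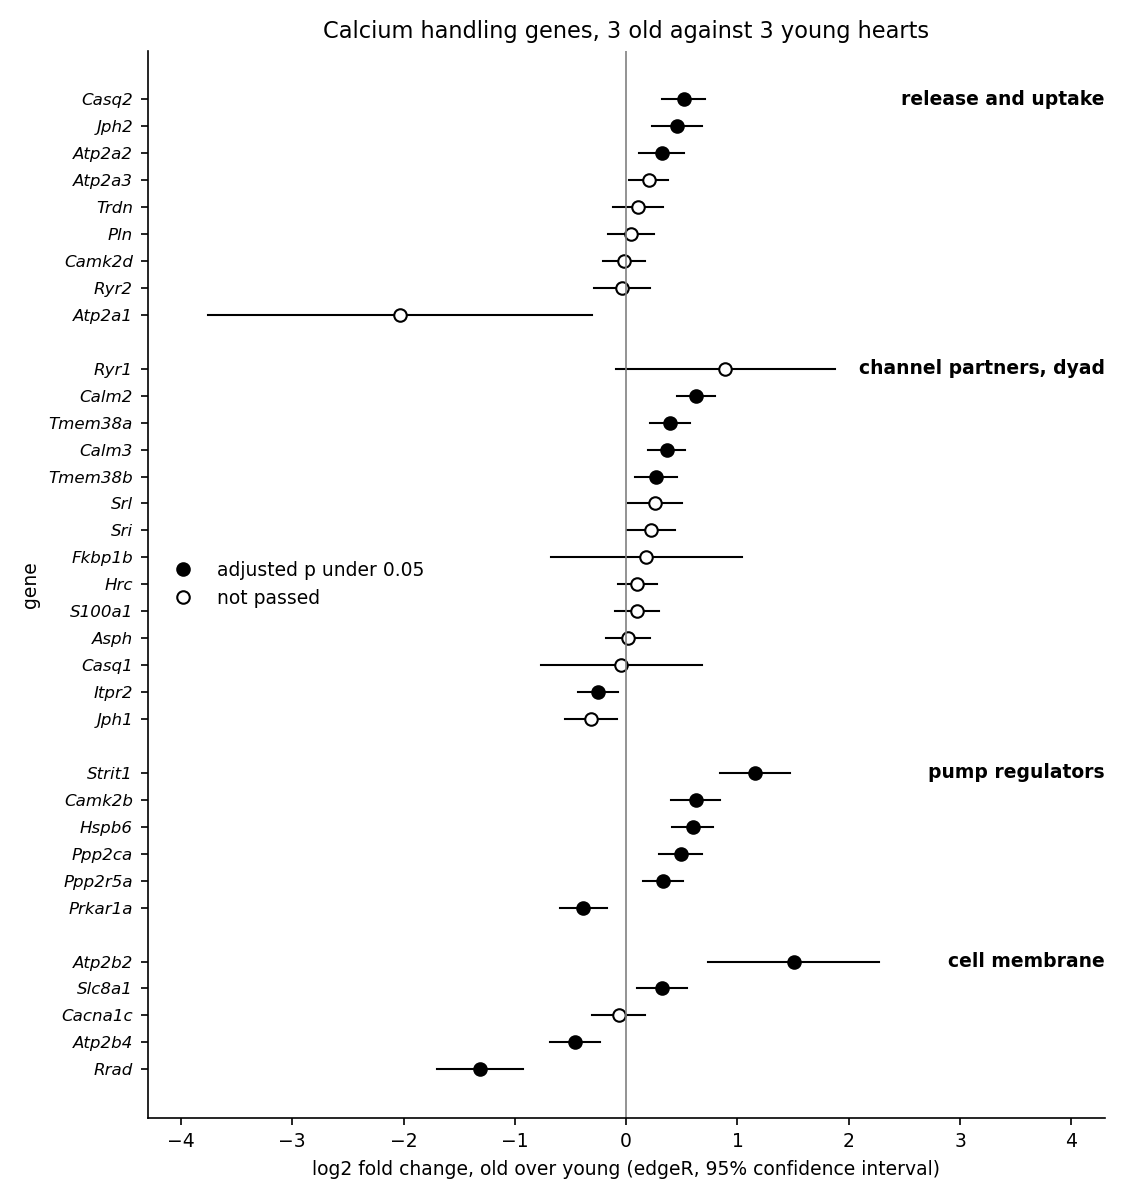
Log2 fold changes of old over young hearts with 95% confidence intervals for 9 release and uptake genes and for named genes of 3 further lists. Filled points passed at an edgeR adjusted p under 0.05. Casq2, Jph2 and Atp2a2 lie between 0.32 and 0.52, Strit1 lies at 1.16 and Rrad at -1.31.

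Of the 25 other genes that regulate uptake, 24 were tested, of which 6 were called higher and 2 lower in old hearts. Among all tested genes, 11.4% were called higher and 10.6% lower. The list's median log2 fold change was 0.07, against -0.01 over all tested genes. Hspb6, the small heat shock protein Hsp20, which inhibits protein phosphatase 1 beside phospholamban in rodent heart, rose by 0.60 ± 0.08. Ppp2ca, the catalytic subunit of protein phosphatase 2A, rose by 0.49 ± 0.09, and Ppp2r5a, a regulatory subunit of that enzyme, by 0.33 ± 0.08. Prkar1a, a regulatory subunit of protein kinase A, fell by 0.39 on the log2 scale (SE 0.10), at 592, 617 and 488 CPM in old hearts and 744, 742 and 732 CPM in young hearts. The calls of Ppp2r5a and Prkar1a were lost without young 1 or young 3, and that of Ppp2r5a also with limma on log2(FPKM + 1) without filter. Hax1, a binding partner of phospholamban, rose by 0.30 ± 0.10, and Akap6, a scaffold of protein kinase A, was lower at -0.43 ± 0.12. Both were named after their values were seen. Hax1 was called in 2 and Akap6 in 3 of the 6 fits that left out a library, and Akap6 was also not called after removal of the length trend. Hax1 was called in 4 of its 12 other alternatives, and not with upper-quartile scaling, library size alone, the replicate block, DESeq2, the FPKM fits or the length trend removed.

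Camk2d encodes the delta isoform of CaMKII, the kinase that phosphorylates phospholamban and the ryanodine receptor in heart. It had 133, 142 and 124 CPM in old hearts and 138, 127 and 141 CPM in young hearts, with overlap. Camk2d stood at -0.02 ± 0.09 on the log2 scale (SE, edgeR adjusted p = 0.877), with a 95% confidence interval from -0.21 to 0.16, and its sign was positive in 3 of 19 alternatives. Camk2d made up 33.1% ± 1.65 of the summed FPKM of the 4 CaMKII genes in old and 32.9% ± 1.02 in young hearts (SD, n = 3 each).

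Its paralog Camk2b had 20.6, 19.0 and 21.5 CPM in old hearts and 13.1, 12.7 and 13.8 CPM in young hearts, so every old library was higher. It rose by 0.62 ± 0.10 on the log2 scale (edgeR adjusted p = 0.00123), and was called whichever library was left out. It remained the least abundant of the 4 CaMKII genes per length, at 3.62 ± 0.285 FPKM in old and 2.48 ± 0.128 FPKM in young hearts.

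Ryr2 encodes the cardiac ryanodine receptor, the calcium release channel. Its CPM was 706, 928 and 787 in old hearts and 776, 768 and 943 in young hearts. Old 2 and young 3 were high and the groups overlapped. For the channel, the log2 fold change was -0.04 ± 0.12 (SE, edgeR adjusted p = 0.837), with a 95% confidence interval from -0.29 to 0.21. The sign was positive, at 0.07, after removal of the gene length trend, and also without old 1 or young 3. Ryr2 made up 99.4% to 99.6% of the summed FPKM of the 3 ryanodine receptor genes in every heart. Ryr1, the skeletal channel, had 0.0839 to 0.134 FPKM in old and 0.0211 to 0.104 FPKM in young hearts.

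Casq2 encodes cardiac calsequestrin, the protein that binds calcium inside the store next to the channel. Its CPM was 953, 1126 and 979 in old hearts and 713, 686 and 737 in young hearts. The groups did not overlap, and all 3 young hearts lay close together. The log2 fold change was 0.52 ± 0.09 (SE, edgeR adjusted p = 0.00192), and every alternative called it, with values from 0.43 to 0.57 and edgeR adjusted p up to 0.0143 with a library left out.

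Jph2 encodes junctophilin 2, which ties the store to the cell membrane at the dyad, the site where channel and membrane meet. Its CPM was 630, 791 and 652 in old hearts and 500, 466 and 543 in young hearts. The groups did not overlap, and old 2 was highest. The log2 fold change was 0.46 ± 0.10 (SE, edgeR adjusted p = 0.00903). It was called whichever library was left out, and missed the threshold only on log2(FPKM + 1) values with no filter (limma adjusted p = 0.0544). Jph1, the junctophilin of skeletal muscle, pointed the other way at -0.32 ± 0.11 without passing (edgeR adjusted p = 0.0529), and was called with 6 of the 12 other scalings, filters and tests and without old 2. Jph2 was 97.2% ± 0.102 of junctophilin FPKM in old and 95.3% ± 0.385 in young hearts (SD, n = 3 each).

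Trdn encodes triadin, which anchors calsequestrin to the channel. It had 232, 219 and 207 CPM in old hearts and 203, 233 and 178 CPM in young hearts. Young 3 was lowest and young 2 highest, so that the old values fell within the young range. Triadin transcript stood at 0.10 ± 0.10 on the log2 scale (SE, edgeR adjusted p = 0.499), with a 95% confidence interval from -0.12 to 0.33.

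The promoters of the channel and of the 2 of its partners that rose are shown because Casq2 and Jph2 were called in every fit with a library left out while Ryr2 was not called in any. Each line gives the 250 bases before the annotated start from RefSeq on GRCm38.p6, an older build than that of the files, read 5′ to 3′ in the direction of the gene. Capitals mark E-boxes (CANNTG), Sp1 GC boxes (GGGCGG) and MEF2 sites, searched on both strands.
Casq2, chr3:102086165-102086414, plus strand: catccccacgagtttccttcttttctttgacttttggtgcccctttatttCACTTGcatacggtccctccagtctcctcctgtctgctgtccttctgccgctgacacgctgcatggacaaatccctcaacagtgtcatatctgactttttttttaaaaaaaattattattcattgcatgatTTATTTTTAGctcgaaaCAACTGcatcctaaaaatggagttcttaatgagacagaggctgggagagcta
Jph2, chr2:163397994-163398243, minus strand: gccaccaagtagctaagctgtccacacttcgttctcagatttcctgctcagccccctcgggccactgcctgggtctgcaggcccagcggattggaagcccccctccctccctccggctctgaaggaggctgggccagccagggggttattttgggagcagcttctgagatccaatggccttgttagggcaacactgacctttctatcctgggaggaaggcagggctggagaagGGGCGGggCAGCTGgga
Ryr2, chr13:12106946-12107195, minus strand: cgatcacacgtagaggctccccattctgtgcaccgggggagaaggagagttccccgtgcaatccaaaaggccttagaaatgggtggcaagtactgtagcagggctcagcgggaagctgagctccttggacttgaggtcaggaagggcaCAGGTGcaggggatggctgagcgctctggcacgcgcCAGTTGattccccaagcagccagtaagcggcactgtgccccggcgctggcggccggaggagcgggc

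All 3 windows held an E-box, as did 66.2% of the 32851 promoter windows of this length in the table. The Casq2 window held a MEF2 match 69 to 60 bases before the start, a motif found in 2.92% of windows, and the Jph2 window a GC box 17 to 12 bases before the start, found in 32.7%. The Casq2 window was the poorest of the 3 in G and C, at 41.6%, against 62% in Jph2 and 63.2% in Ryr2. Of the 10 genes, 7 had an entry in the table, and Atp2a2, Sln and Trdn had none. These matches describe letters in the windows only.

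Because a ratio within a library does not depend on how libraries are scaled, transcript ratios among these genes were also followed heart by heart. Such ratios describe transcript per length and not the proportions of the proteins. The ratio of Casq2 to Ryr2 transcript per length was 8.92, 8.01 and 8.22 in old hearts and 6.07, 5.90 and 5.16 in young hearts. That of Jph2 to Ryr2 was 3.17, 3.03 and 2.95 in old hearts and 2.29, 2.16 and 2.05 in young hearts. Neither ratio overlapped between the groups, and the differences in mean log2 ratio were 0.56 for Casq2 and 0.50 for Jph2 (exact 2-sided permutation p = 0.1 for each, the smallest possible with 3 against 3, and adjusted p = 0.2 over 6 ratios).

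Set against the pump, the channel was lower in old hearts. The ratio of Ryr2 to Atp2a2 was 0.0198, 0.0226 and 0.0205 in old hearts and 0.0248, 0.0278 and 0.0283 in young hearts, again without overlap (difference in mean log2 ratio -0.36, exact permutation p = 0.1, adjusted p = 0.2). The ratio of Trdn to Ryr2 averaged 0.964 ± 0.166 in old and 0.876 ± 0.201 in young hearts and overlapped (difference in mean log2 ratio 0.15, exact permutation p = 0.6). With Benjamini-Hochberg adjustment 0 of the 6 ratios passed, a threshold that this design cannot reach. The Ryr2 gene model of 16951 bases is longer than those of Casq2 (2565 bases) and Atp2a2 (5294 bases), so the fold changes were also taken after removal of the length trend. There the log2 fold change was 0.49 for Casq2, 0.50 for Jph2, 0.37 for Atp2a2 and 0.15 for Trdn, beside 0.07 for Ryr2.

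**Figure D4:**
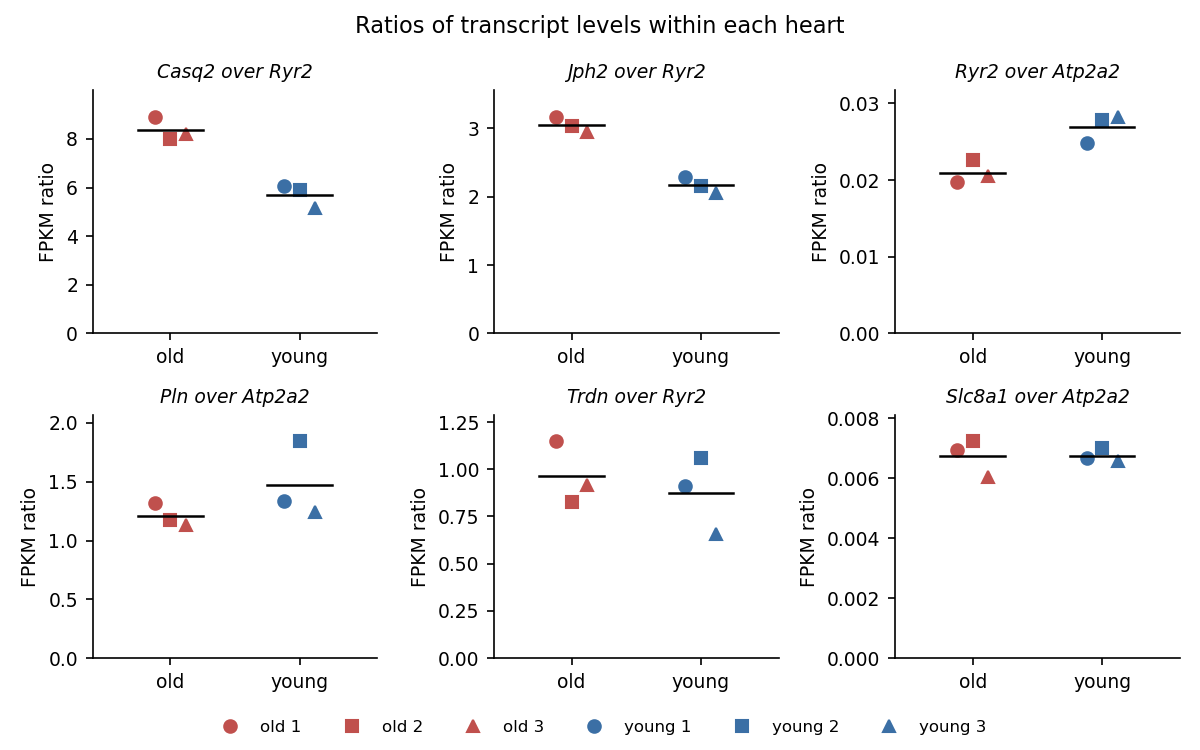
FPKM ratios within each heart for 6 pairs of genes, from 0 upward, with old hearts left of young ones, 1 symbol per library and a bar at the group mean. Casq2 over Ryr2 and Jph2 over Ryr2 are higher, and Ryr2 over Atp2a2 lower, in all 3 old hearts than in any young heart.

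Among the other genes of the channel complex and dyad, 23 of 27 were tested, of which 5 were called higher and 1 lower. The shares over all tested genes were 11.4% higher and 10.6% lower. The list's median log2 fold change was 0.16. Calm2 and Calm3 encode calmodulin, a calcium sensor that binds the ryanodine receptor and activates CaMKII. Calm2 had 184, 186 and 192 CPM in old hearts and 122, 123 and 118 CPM in young hearts, without overlap. It rose by 0.63 ± 0.08 on the log2 scale (edgeR adjusted p = 0.000194). Calm3 rose by 0.36 ± 0.08 on the same scale, and both were called under every alternative. How reads shared by near-identical stretches of such genes were split is not stated in the labels.

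Tmem38a and Tmem38b encode TRIC-A and TRIC-B, channels that carry potassium counter to calcium across the store membrane. Tmem38a had 585, 663 and 608 CPM in old hearts and 472, 458 and 484 CPM in young hearts, and rose by 0.39 ± 0.08 (edgeR adjusted p = 0.00616) under every alternative. Tmem38b rose by 0.27 ± 0.09, a call kept only without old 1 among the fits with a library left out. Itpr2, an inositol trisphosphate receptor, fell by 0.25 on the log2 scale (SE 0.08, edgeR adjusted p = 0.0499), and the call was lost with any library left out. Both genes were called in 3 of their 12 other alternatives, and neither with DESeq2.

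Other partners of the channel did not pass. Hrc, the histidine-rich calcium binding protein of the store, stood at 0.10 ± 0.08 and S100a1, a calcium sensor that acts on both channel and pump, at 0.10 ± 0.09. Asph, whose products include the calsequestrin anchor junctin, stood at 0.02 ± 0.09, and its counts also cover the enzyme made from that gene. Srl, the store glycoprotein sarcalumenin, stood at 0.26 ± 0.11 and Sri, the channel regulator sorcin, at 0.22 ± 0.10, with edgeR adjusted p = 0.111 and 0.124. Fkbp1b, which stabilises the closed channel, had 1.51 ± 0.774 FPKM in old and 1.398 ± 0.308 FPKM in young hearts, too low for a precise estimate (0.18 ± 0.39). Casq1 and Ryr1, the skeletal forms, stood at -0.04 ± 0.33 and 0.89 ± 0.45.

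Among genes of calcium entry and exit across the cell membrane, the smallest p was that of Rrad, a small GTPase that restrains the L-type calcium channel. Its CPM was 67.5, 123 and 112 in old hearts and 275, 228 and 248 in young hearts, without overlap. It fell by 1.31 on the log2 scale (SE 0.18, edgeR adjusted p = 0.000376), and was called whichever library was left out. Cacna1c, the pore of that channel, had 231, 258 and 240 CPM in old hearts and 247, 219 and 298 CPM in young hearts with overlap, and its change of -0.07 ± 0.11 missed the threshold (edgeR adjusted p = 0.691). Of the 15 genes of entry and exit, 14 were tested, of which 2 were called higher and 2 lower, beside 11.4% and 10.6% of all tested genes. The list's median log2 fold change was -0.03.

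The remaining calls concern calcium exit. Slc8a1, the sodium-calcium exchanger, had 290, 348 and 271 CPM in old hearts and 245, 227 and 257 CPM in young hearts, and rose by 0.32 ± 0.10 (edgeR adjusted p = 0.0445), a call that of the 6 possible omissions of a library withstood only that of old 3, and that was lost with upper-quartile scaling, library size alone, the replicate block and the FPKM fits. Its ratio to Atp2a2 was 0.00674 ± 0.000630 in old and 0.00675 ± 0.000224 in young hearts (SD, n = 3 each), with overlap. Atp2b4, a calcium pump of the cell membrane, was lower at 49.1 ± 6.91 CPM in old and 67.6 ± 3.33 CPM in young hearts (-0.46 ± 0.10, edgeR adjusted p = 0.00923). Atp2b2, another such pump, rose by 1.504 ± 0.35 at a level of 0.205 ± 0.0746 FPKM in old and 0.0758 ± 0.0175 FPKM in young hearts, a call lost with limma on log2(FPKM + 1) without filter.

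**Figure D5:**
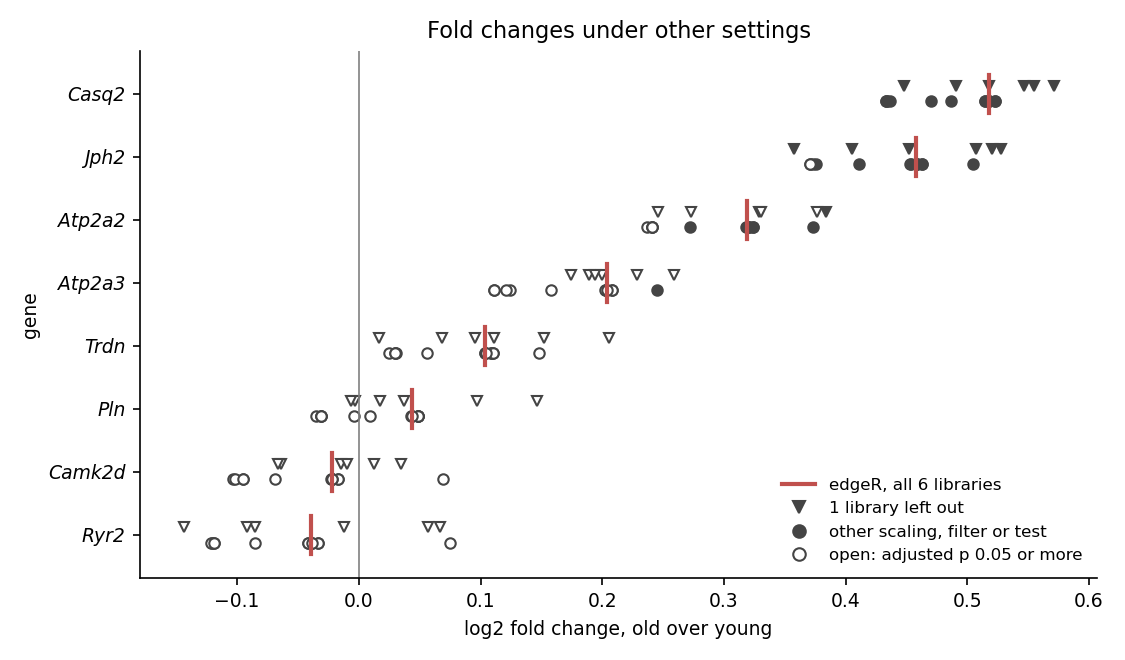
Log2 fold changes of old over young for 8 genes in the fit of all 6 libraries (bar), with a library left out (triangles) and under other scalings, filters and tests (circles), filled where the adjusted p was under 0.05. Casq2 is filled throughout at 0.43 to 0.57, Atp2a2 is filled in 10 of 19 fits, and Pln, Camk2d and Ryr2 lie on both sides of 0.

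Among the genes whose profile over the 6 libraries was most like that of Atp2a2 were Ctsd, Usp54, Psap and Bves. Likeness was the root mean square difference of log2 CPM after each gene was centred on its own mean, and it was 0.03 to 0.04 for these 4 among 11898 genes. All 4 were higher in old hearts, which follows from choosing them by likeness to Atp2a2 over the same libraries. Ctsd, the gene of the lysosomal protease cathepsin D, had 1407, 1622 and 1499 CPM in old hearts and 1235, 1084 and 1245 CPM in young hearts. For Atp2a1, the gene with the widest range over the libraries, the 5 nearest were Srp54b, Zfp658, Tnni2, Pkdrej and Gm12258, at a much larger difference of 0.78 to 0.96. Tnni2, the fast skeletal troponin I, is among the skeletal muscle markers.

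Beside the rise of Casq2, Jph2 and Atp2a2, the ventricular muscle markers did not move one way, and without Actc1 their summed level overlapped between the groups. Actc1 rose by 1.08 ± 0.08, Tnni3 by 0.35 ± 0.09, and Mybpc3 was lower at -0.59 ± 0.12. Ttn was lower at -0.50 ± 0.12, and Myl2 and Myl3 did not pass, at -0.10 ± 0.11 and 0.11 ± 0.08. The part of the muscle cell content of the samples in these results was not tested.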

How the data were processed

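Hearts of 3 old and 3 young mice were profiled by RNA-seq, with a stranded mRNA library kit per the labels' protocols. The submitters' processing notes name GRCm39 and the tools HISAT2, HTSeq, StringTie, Cufflinks, DESeq, Bowtie2 and Trimmomatic, without role or version. The strand setting of the counting is not stated, so overlapping genes could share reads. The authors deposited raw counts per gene and FPKM values, and these FPKM equal the counts divided by a fixed gene length and the library total (relative deviation up to 6.9e-07).

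Genes were compared on the deposited counts of all 6 libraries by edgeR 4.0.16 under R 4.3.3 (filterByExpr, TMM, quasi-likelihood F test, no covariate). P-values were adjusted by Benjamini-Hochberg over 12893 genes, and a gene was called under 0.05. SE is the size of the fold change over the root of F. The test was checked on simulated counts. FPKM ratios were compared by an exact 2-sided permutation test.

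The members and lists were chosen with earlier results of these data known. Named are all members, up to 6 called genes per list by smallest p, and a set of further partners whatever their result; some genes that this rule names are not reported here. Alternatives were other scalings and filters, a replicate block, each library left out, DESeq2 1.42.0, limma 3.58.1 (voom, and FPKM with pseudocounts of 1 and 0.1) and removal of a length trend. The labels name no batch. P-values measure the spread between these samples only. Replicates differed by more than counting noise (chi-square per degree of freedom 7.90 to 16.7).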

Additional observations from a re-analysis of the deposited data

How the results depend on the processing

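None of the 21 called among 37 named genes changed sign under the alternatives run, and no alternatives were run for the cell type markers and the genes chosen for likeness. Of 671 values of the named genes under alternatives, 30 values in 8 genes changed sign where neither fit called the gene, Pln, Ryr2 and Camk2d among them. Of the 21, 11 were called under every alternative. The 3 release and uptake genes called higher became 1 with limma on log2(FPKM + 1) without filter, and were 2 to 3 with a library left out. They became 2 with library size alone, the replicate block, the filtered limma fits on FPKM and an adjusted p under 0.01. With Atp2a3 they became 4 after removal of the length trend and at an adjusted p under 0.1. The 0 called lower became 1 (Atp2a1) with no filter and at an adjusted p under 0.1, and were 0 to 1 with a library left out. Of the channel complex list, the 1 gene called lower became 0 with RLE scaling, no filter, DESeq2, limma on log2(FPKM + 1) without filter, the length trend removed and an adjusted p under 0.01. That count became 4 with upper-quartile scaling and library size alone, 2 with limma on log2(FPKM + 1) and on log2(FPKM + 0.1), and 3 at an adjusted p under 0.1, and was 0 to 2 with a library left out. Of the uptake regulators, the 2 called lower became 4 with library size alone and with limma on log2(FPKM + 1) and log2(FPKM + 0.1), and 0 at an adjusted p under 0.01, and were 0 to 2 with a library left out. Of the membrane list, the 2 called higher became 1 with upper-quartile scaling and library size alone, and 0 with the 3 limma fits on FPKM and at an adjusted p under 0.01, and were 1 to 3 with a library left out. With a library left out, the difference in log2 ratio of Trdn over Ryr2 ran from -0.0389 (without young 3) to 0.301, and that of Slc8a1 over Atp2a2 from -0.06001 to 0.0712 (without old 3), with 0.0197 without young 2. The cause of these changes was not tested. Leaving the 10 most abundant genes out of the scaling was chosen after seeing the data and left the counts of 3 higher and 0 lower release and uptake genes as they were.

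Samples with the same number did not deviate together (r = 0.0787, 0.0809 and 0.00575), so the numbers were not taken to pair them. With the number as a replicate block, 2734 genes in place of 2835 were called, 2 release and uptake genes higher (the call of Atp2a2 was lost) and 1 lower (Atp2a1), and 1 membrane gene higher. The smallest p of the blocked ratios is 0.25, which 3 pairs cannot go below. Sln and Mrln had too few counts to be tested.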
